A study of Homo sapiens with 6 samples.

Results

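The genes described here encode core machinery of membrane fusion, the step by which a secretory or intracellular transport vesicle joins its target membrane. They are the syntaxins, the SNAP proteins and the VAMPs, which are the SNARE proteins proper, and the syntaxin-binding (STXBP), UNC13, complexin, synaptotagmin, synaptotagmin-like (SYTL), RAB3 and RAB27 families, which control them. Members were chosen by gene symbol, and 72 of the 23368 rows of the deposited table matched. Expression was compared in H2122, an established human lung adenocarcinoma cell line, between 3 libraries of cells transfected for 48 hours with a control shRNA and 3 of cells given an shRNA against the gene LCLAT1, which the labels call LYCAT. Both groups were the same line, grown in the same way, and the series title says knockout where the sample labels say shRNA. The labels give neither the hairpin sequence nor the number of cultures behind each group, so the spread between libraries, on which every p-value rests, may be technical only.

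A SNARE on the vesicle (a VAMP) and SNAREs on the target membrane (a syntaxin with a SNAP protein, or several syntaxin-like proteins) zip into a bundle that pulls both membranes together. STXBP proteins of the Munc18 type hold and template syntaxins, UNC13 proteins prime vesicles, complexins bind the assembled bundle and both restrain and support fusion, and synaptotagmins with calcium-binding domains trigger it when calcium rises. RAB3 and RAB27 are small GTPases on the vesicle surface that recruit effectors such as the SYTL proteins to dock it. Epithelial cells use VAMP8, SNAP23, RAB3D and RAB27 for mucin and other granules, while complexins, SYT1 and STX1A are best known from neurons and endocrine cells.

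Library totals ran from 3118946 to 4930079 counts, and 11097 genes were abundant enough to be tested with edgeR's quasi-likelihood test. LCLAT1, the target of the shRNA, stood at 35.5% of the control mean (log2 fold change -1.50, SE 0.114, edgeR adjusted p = 1.15e-18; exact two-sided permutation p = 0.1, the smallest that 3 against 3 libraries can give). Of 6 epithelial markers all were expressed, with a summed level of 1607 to 1697 CPM (counts per 1000000 of the scaled library size) in controls and 1432 to 1498 with LYCAT shRNA, and 4 of them fell. The 6 fibroblast markers summed to 30.8 to 128 CPM in controls and 18.7 to 37.0 CPM with LYCAT shRNA, 2 of 4 endothelial and 3 of 5 blood markers had no count in any library, and the part of these differences in the results was not tested. In this bulk RNA, fewer cells of a kind and less RNA per cell cannot be told apart.

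Of the 72 members, 12 had no count in any library, 22 had counts too low to test and 38 were tested. Which members passed this filter depends on their level, so counts over the tested members are not counts over all members. With LYCAT shRNA 4 tested members fell (CPLX2, SYT1, RAB3D and STX16), 2 rose (STX1A and STX6) and 32 did not pass an adjusted p of 0.05. These 6 are 15.8% of the tested members, and 19.1% of all tested genes were called in this comparison (9.81% higher and 9.26% lower). The libraries of the groups did not overlap for 13 tested members, 4 with LYCAT shRNA above and 9 with it below, where 32.8% of all tested genes did not overlap. The median log2 fold change of the tested members was -0.04, and that of all tested genes was -0.006. This set of genes was proposed with results of this same comparison known, the fall of CPLX2 among them, so the calls below describe these libraries and are not independent support for any statement about the set.

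**Figure D1:**
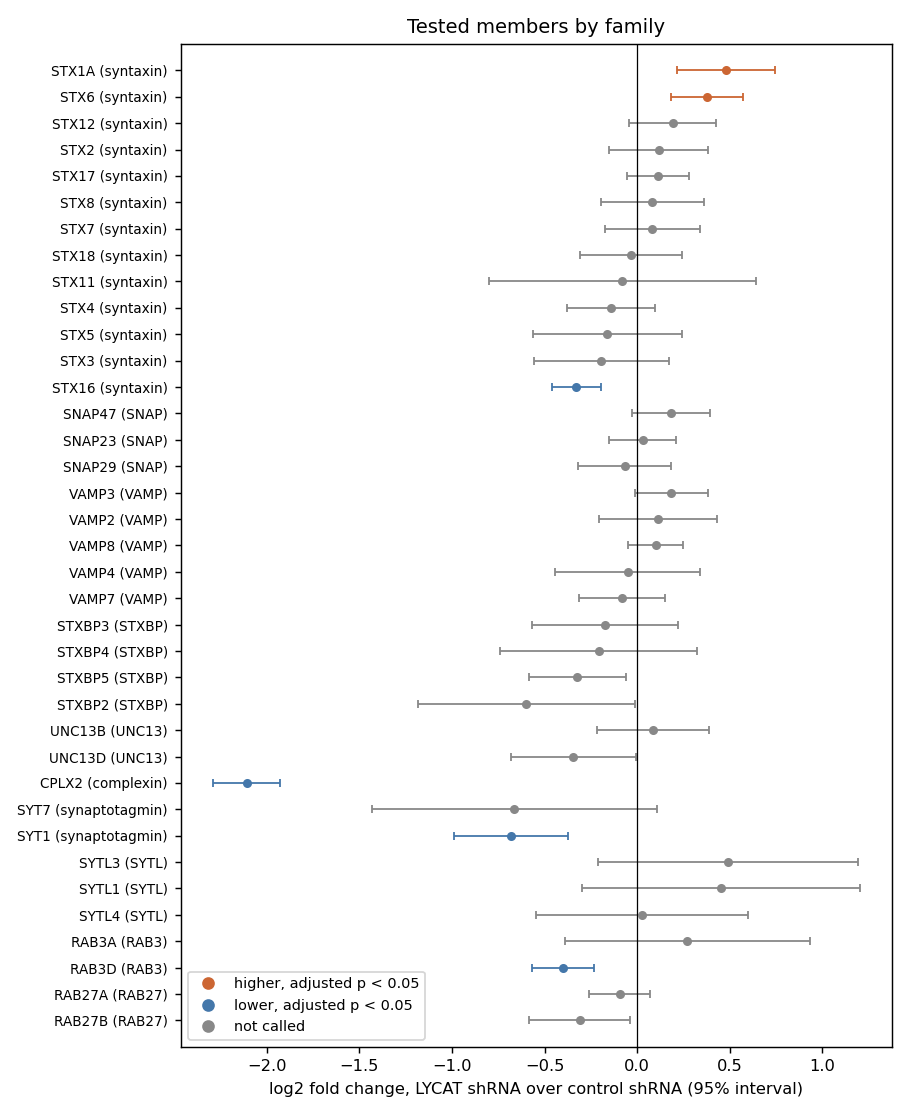
Log2 fold change of 37 of the 38 tested members (x axis, LYCAT shRNA over control shRNA, 3 libraries each) with its 95% interval, grouped by family. CPLX2 lies at -2.11, apart from all other members, which lie between -0.68 and 0.49.

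The promoter sequences of 4 called members are shown because these are the called members with the largest changes in each direction: CPLX2 and SYT1, which fell, and STX1A and STX6, which rose. They are RefSeq windows from 250 bases before to 50 bases after a gene's start (build GRCh38.p14), given 5′ to 3′ on the strand of the gene, and 58 of the 72 members had one. Capitals mark matches on either strand to 5 motifs: TGACGTCA (the cyclic AMP response element), CACGTG (an E-box), TGANTCA (the AP-1 site), GGGCGG (a box bound by SP and KLF factors) and TGATGNAA (a C/EBP-ATF element). No motif in this list contains another.
CPLX2, chr5:175796283-175796582, plus strand: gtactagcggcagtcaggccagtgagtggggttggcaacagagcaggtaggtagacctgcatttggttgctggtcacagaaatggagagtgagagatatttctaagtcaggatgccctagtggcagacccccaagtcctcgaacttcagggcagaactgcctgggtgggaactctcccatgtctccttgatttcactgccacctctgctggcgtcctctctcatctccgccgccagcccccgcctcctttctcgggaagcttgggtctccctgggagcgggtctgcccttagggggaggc
SYT1, chr12:78864524-78864823, plus strand: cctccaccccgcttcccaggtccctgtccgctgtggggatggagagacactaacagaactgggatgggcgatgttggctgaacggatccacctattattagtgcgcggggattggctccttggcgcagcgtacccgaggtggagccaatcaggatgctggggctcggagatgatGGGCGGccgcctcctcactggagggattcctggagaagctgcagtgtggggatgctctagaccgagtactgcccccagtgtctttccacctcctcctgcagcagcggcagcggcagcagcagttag
STX1A, chr7:73719620-73719919, minus strand: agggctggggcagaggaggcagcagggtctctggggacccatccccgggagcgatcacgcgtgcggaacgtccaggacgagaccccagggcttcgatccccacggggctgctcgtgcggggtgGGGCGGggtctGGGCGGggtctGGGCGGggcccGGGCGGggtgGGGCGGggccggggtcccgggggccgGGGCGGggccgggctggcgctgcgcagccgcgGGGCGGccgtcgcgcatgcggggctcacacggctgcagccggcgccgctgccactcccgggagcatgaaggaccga
STX6, chr1:181022821-181023120, minus strand: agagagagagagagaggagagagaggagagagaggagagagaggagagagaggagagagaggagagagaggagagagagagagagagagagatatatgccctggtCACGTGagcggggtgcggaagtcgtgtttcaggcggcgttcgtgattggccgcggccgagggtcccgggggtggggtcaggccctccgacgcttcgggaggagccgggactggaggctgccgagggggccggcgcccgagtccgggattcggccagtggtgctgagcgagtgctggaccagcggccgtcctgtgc

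None of the 5 motifs matched in the CPLX2 window. The SYT1 window held 1 GGGCGG and the STX1A window 7, and the STX6 window held 1 CACGTG. Of the 33 tested members with a window 25 held GGGCGG (75.8%), against 44.6% of 27305 RefSeq promoters. The windows of all 58 matched members, tested or not, had a median G and C content of 66.5%, against 58.3%. The RefSeq promoters were not limited to genes tested here, so members that passed the level filter are set against an unlike set. The other motifs were rarer: CACGTG was in 4 of the 33 (12.1%, against 7.43% of all), TGACGTCA in 2 (6.06%, against 1.98%), and TGANTCA and TGATGNAA in 1 each (3.03%, against 7.76% and 3.67%). These matches describe the letters of 1 window a gene. Which start site the H2122 cells use was not measured.

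CPLX2, complexin 2, changed most of the members. It stood at 147, 124 and 133 CPM with control shRNA and at 34.2, 31.6 and 27.8 CPM with LYCAT shRNA. Every control library was more than 3 times the highest LYCAT shRNA library, and the spread within each group was small beside the gap between them. The mean went from 135 ± 11.7 to 31.2 ± 3.24 CPM (SD, n = 3 each), a 4.31-fold fall (log2 -2.11, SE 0.0914, edgeR adjusted p = 9.81e-33). Counts were 687, 612 and 542 against 161, 98 and 119, so the fold does not rest on a few reads. By log2 fold change CPLX2 was number 13 from the bottom of the 11097 tested genes, although 76% of them had a mean level no higher. No stretch of 40 bases in its annotated transcripts (GENCODE release 29) occurred in a transcript of another gene. The log2 fold change ran from -2.19 to -2.02 when any 1 library was left out.

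Nearly all complexin counts were on CPLX2. Complexin 1 (CPLX1) had counts of 7, 3 and 3 in controls and 5, 0 and 4 with LYCAT shRNA, and CPLX3 and CPLX4, complexins known from retina, had no count in any library. Summed over the family, complexin RNA went from 136 ± 12.1 to 31.9 ± 3.30 CPM (SD, n = 3 each). Of all counts on the 72 members CPLX2 took 9.34% to 10.8% in the control libraries and 2.31% to 2.87% in the LYCAT shRNA libraries, a share of counts that also depends on transcript length. The members together took 1296 to 1380 CPM of the library totals in controls and 1165 to 1195 CPM with LYCAT shRNA. On these sums the groups did not overlap. CPLX2 is part of these sums and its share fell, so they do not show a fall of the other members as a whole.

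**Figure D2:**
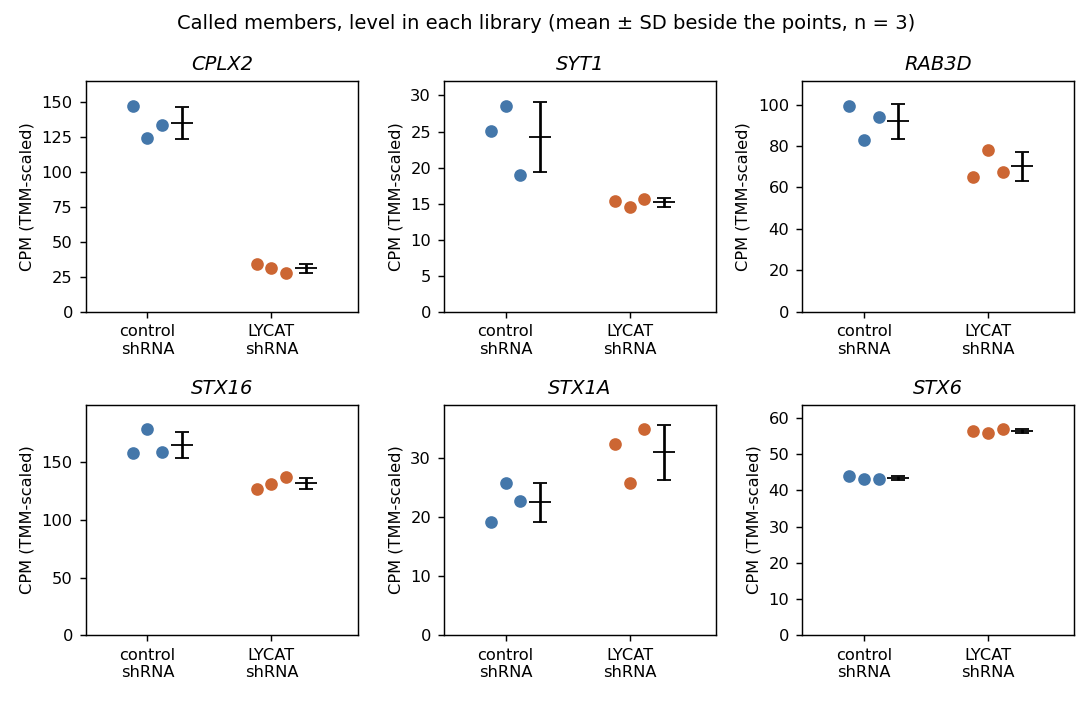
Level in CPM (y axis, from 0) of the 6 called members in each of the 3 control shRNA and 3 LYCAT shRNA libraries, with the mean and SD beside the points. CPLX2 falls from 135 to 31.2 CPM, while the other 5 members differ by 1.60-fold or less and the nearest libraries of the groups for STX1A are 25.7 and 25.8 CPM.

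Among synaptotagmins, SYT1, the fast calcium sensor of neuronal exocytosis, fell. It stood at 25.1, 28.6 and 19.0 CPM in controls and at 15.3, 14.5 and 15.6 CPM with LYCAT shRNA. The groups did not overlap, and the control libraries spread more widely than the LYCAT shRNA libraries. The mean went from 24.2 ± 4.87 to 15.2 ± 0.583 CPM (SD, n = 3 each), a 1.60-fold fall (log2 -0.68, SE 0.155, edgeR adjusted p = 0.000594). With control library 3 as the only control, a comparison added after the data were seen, its log2 fold change was -0.32. Control libraries 1 and 2, left out there, held the most fibroblast marker RNA. Any link of SYT1 to that RNA was not tested. Of 6630 distinct 40-base stretches in SYT1 transcripts, 1 occurred in another annotated gene.

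SYT7, a slower and more sensitive calcium sensor also found outside neurons, was the other tested synaptotagmin. Its counts were 17, 15 and 13 in controls and 10, 7 and 8 with LYCAT shRNA, and the groups did not overlap after scaling. The log2 fold change was -0.66 with a 95% interval of -1.43 to 0.11 (edgeR adjusted p = 0.245). Counts this low left a change of the size seen for SYT1 within the interval. The remaining 16 of 18 synaptotagmin rows were too low to test: 7 had no count (SYT4, SYT5, SYT8, SYT9, SYT14, SYT14L and SYT16), and SYT2, SYT3, SYT6, SYT10, SYT11, SYT12 and SYT13 had 1 to 10 counts over all libraries. SYT15, with 42 counts in all, had 7, 2 and 6 in controls and 10, 5 and 12 with LYCAT shRNA, and SYT17 had 22 in all. Summed over the family, synaptotagmin RNA went from 31.2 ± 4.89 to 20.4 ± 1.16 CPM (SD, n = 3 each).

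The SYTL proteins, which tether RAB27-bearing granules to the plasma membrane, were near the floor of measurement. SYTL1, SYTL3 and SYTL4 were tested, at control means of 2.36, 2.73 and 4.98 CPM, where 3 counts correspond to 0.608 to 0.967 CPM. Their log2 fold changes were 0.45, 0.49 and 0.03, and 0 of the 3 passed, where 19.1% of all tested genes did. The 95% intervals ran from -0.30 to 1.20 for SYTL1, from -0.21 to 1.19 for SYTL3 and from -0.54 to 0.60 for SYTL4. A 2-fold rise lay inside the first and second of these intervals and outside that of SYTL4, and a 2-fold fall lay outside all 3. SYTL2 and SYTL5 had 7 and 2 counts over all libraries.

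RAB3D, the RAB3 isoform of exocrine and other non-neuronal granules, fell. Its level was 99.5, 82.7 and 93.8 CPM in controls and 65.1, 78.0 and 67.5 CPM with LYCAT shRNA. The lowest control library stood only a little above the highest LYCAT shRNA library. The mean went from 92.0 ± 8.53 to 70.2 ± 6.90 CPM (SD, n = 3 each), a 1.32-fold fall (log2 -0.40, SE 0.0843, edgeR adjusted p = 0.000206). Exons of RAB3D overlap those of TMEM205 on the same strand and those of AC011472.3 and CCDC159 on the opposite strand. Of the 40-base stretches of RAB3D transcripts 24.2% occur in other annotated genes, mainly AC011472.3. TMEM205 itself fell by 0.37 on the log2 scale, from 96.9 ± 2.06 to 75.2 ± 2.41 CPM (SD, n = 3 each; edgeR adjusted p = 0.000259), so the values of RAB3D and TMEM205 are uncertain where reads could be assigned to either. RAB3A, the neuronal isoform, had 3.43 ± 1.27 and 4.24 ± 0.869 CPM (SD, n = 3 each; log2 0.27, 95% interval -0.39 to 0.93), RAB3B had 15 counts in all and RAB3C none.

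RAB27A and RAB27B, the GTPases of late secretory granules and exosomes, did not pass. RAB27A stood at 86.6, 80.7 and 75.4 CPM in controls and 78.9, 72.9 and 75.2 CPM with LYCAT shRNA, overlapping groups with a log2 fold change of -0.09 (95% interval -0.26 to 0.07). RAB27B stood at 31.1, 25.3 and 24.4 CPM in controls and at 21.5, 25.2 and 19.4 CPM with LYCAT shRNA. Its log2 fold change was -0.31 (95% interval -0.58 to -0.04), and the edgeR adjusted p over all tested genes was 0.105. The LYCAT shRNA libraries of RAB27B lay mostly below the controls, with library 2 inside their range.

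Of 13 tested syntaxins 2 rose, 1 fell and 10 did not pass, so 23.1% were called, against 19.1% of all tested genes. The family sum was 495 ± 9.92 CPM in controls and 490 ± 17.8 CPM with LYCAT shRNA (SD, n = 3 each). STX1A, the plasma membrane syntaxin of neurons and endocrine cells, stood at 19.1, 25.7 and 22.7 CPM in controls and at 32.3, 25.8 and 34.8 CPM with LYCAT shRNA. LYCAT shRNA library 2 lay at the level of control library 2, while the others were apart. Of 3816 distinct 40-base stretches in its transcripts 572 occur in other annotated genes, mainly its neighbour BUD23. The log2 fold change was 0.48 (SE 0.133, a 1.39-fold rise, edgeR adjusted p = 0.00581). STX1A did not pass with DESeq2 (adjusted p = 0.0643), nor without control library 1 or LYCAT shRNA library 3 (edgeR adjusted p = 0.073 and 0.086), nor with a single control library (log2 0.47, edgeR adjusted p = 0.106).

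STX6, a syntaxin of the trans-Golgi network and endosomes, rose by a similar size with less spread. Its level was 43.9, 43.0 and 43.1 CPM in controls and 56.4, 55.8 and 56.7 CPM with LYCAT shRNA. All libraries of a group lay within 1 CPM of each other, and the groups were far apart on that scale. The log2 fold change was 0.38 (SE 0.0975, a 1.30-fold rise, edgeR adjusted p = 0.00267). With a single control library left in the comparison the log2 fold change was 0.39 and the edgeR adjusted p was 0.0547.

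STX16, which pairs with STX6 in transport from endosomes to the trans-Golgi network, fell. It stood at 157, 178 and 158 CPM in controls and at 127, 131 and 137 CPM with LYCAT shRNA, with every control library above every LYCAT shRNA library. The mean went from 165 ± 11.6 to 131 ± 4.98 CPM (SD, n = 3 each), a 1.25-fold fall (log2 -0.33, SE 0.0659, edgeR adjusted p = 0.000101). A read-through gene, STX16-NPEPL1, shares exons with STX16 and is itself a member by its symbol. It was listed at 0 in every library, as was NPEPL1, and 26.9% of the 40-base stretches of STX16 transcripts occur in other annotated genes, so how shared reads were counted bears on the level of STX16 and its values are uncertain.

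The other syntaxins of the plasma membrane did not pass. STX4, which serves constitutive and regulated exocytosis at the plasma membrane of most cells, stood at 30.9, 32.6 and 33.0 CPM in controls and at 30.6, 28.4 and 28.3 CPM with LYCAT shRNA (log2 -0.14, 95% interval -0.38 to 0.10). STX3, the apical syntaxin of epithelia, was at 13.9 ± 2.26 and 12.2 ± 1.15 CPM (SD, n = 3 each; log2 -0.19), STX2 at 24.8 ± 2.95 and 26.5 ± 4.56 CPM (log2 0.12) and STX11, a syntaxin of immune cell granules, at 3.15 ± 0.436 and 2.98 ± 0.786 CPM (log2 -0.08). The 95% intervals of all 4 included 0.

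Among syntaxins of inner membranes only STX6 and STX16 passed with edgeR. STX17, the autophagosome syntaxin, had 71.7 ± 3.88 and 77.8 ± 3.71 CPM (SD, n = 3 each; log2 0.11, 95% interval -0.05 to 0.28). STX12, of recycling endosomes, had 29.4, 31.0 and 27.3 CPM in controls and 31.0, 34.5 and 35.3 CPM with LYCAT shRNA. Its groups just failed to overlap, and its log2 fold change of 0.19 did not pass (edgeR adjusted p = 0.281). STX7 and STX8, which act together in late endosomes, had log2 fold changes of 0.08 each, STX18, of the endoplasmic reticulum, -0.03, and STX5, of the Golgi, -0.16. STX10 had counts of 8, 6 and 4 in controls and 3, 1 and 0 with LYCAT shRNA, too few to test, and STX19 had 33 counts in all.

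The SNAP family, partners of syntaxins, held 3 tested genes and no called one, where 19.1% of all tested genes were called. SNAP23, the form used outside neurons, stood at 60.7, 63.8 and 63.3 CPM in controls and at 60.8, 60.0 and 70.3 CPM with LYCAT shRNA. Its log2 fold change was 0.03 with a 95% interval of -0.15 to 0.21, which covers the spread between libraries only. SNAP29, which pairs with STX17 in autophagosome fusion, had a log2 fold change of -0.07 (95% interval -0.32 to 0.18) and SNAP47 one of 0.18 (95% interval -0.03 to 0.40). SNAP47 passed without control library 2 (log2 0.30, edgeR adjusted p = 0.0494). Of the 40-base stretches of SNAP23 and SNAP47 transcripts, 24.1% and 32.65% occur in other annotated genes. The values of both genes are thus uncertain where reads could be assigned to another gene. SNAP25, the neuronal form, had 2, 2 and 1 counts in controls and 3 in each LYCAT shRNA library.

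Likewise 0 of 5 tested VAMP genes were called, where 19.1% of all tested genes were. VAMP8, the vesicle SNARE of epithelial granules and late endosomes, stood at 98.0, 106 and 96.5 CPM in controls and 111, 112 and 100 CPM with LYCAT shRNA (log2 0.10, 95% interval -0.05 to 0.25). VAMP3, of recycling endosomes, stood at 47.8, 47.2 and 46.3 CPM in controls and at 60.6, 50.0 and 49.0 CPM with LYCAT shRNA. All LYCAT shRNA libraries of VAMP3 were above the controls, library 1 most, and the log2 fold change of 0.18 (95% interval -0.01 to 0.38) did not pass (edgeR adjusted p = 0.202). VAMP7, of late endosomes and lysosomes, was at 35.2 ± 4.78 and 33.4 ± 1.52 CPM (SD, n = 3 each; log2 -0.08), VAMP2, the synaptic form, at 16.2 ± 0.146 and 17.5 ± 1.49 CPM (log2 0.11) and VAMP4, of the trans-Golgi network, at 11.7 ± 2.00 and 11.1 ± 2.36 CPM (log2 -0.05). VAMP1 and VAMP5 had 35 and 7 counts in all.

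Of the regulators that hold or prime SNAREs, 5 STXBP and 2 UNC13 genes were tested. Of these, 0 passed with edgeR, where 19.1% of all tested genes did. At an unadjusted edgeR p under 0.05, 3 of these 7 were lower, where 15.3% of all tested genes were lower at that p. Over all 38 tested members 10 had an unadjusted edgeR p under 0.05 in either direction, where 30.8% of all tested genes did. STXBP5 (tomosyn), which binds syntaxins and blocks SNARE assembly, stood at 30.9, 28.2 and 27.1 CPM in controls and at 25.5, 23.2 and 20.1 CPM with LYCAT shRNA. The groups did not overlap, and the log2 fold change was -0.32 (SE 0.132, edgeR adjusted p = 0.0748). UNC13D (Munc13-4), a RAB27 effector that primes granules of blood cells, stood at 16.3, 16.2 and 18.2 CPM in controls and at 12.5, 13.9 and 13.5 CPM with LYCAT shRNA (log2 -0.35, SE 0.169, edgeR adjusted p = 0.15). STXBP2 (Munc18-2), the epithelial and immune Munc18, stood at 8.57, 4.66 and 5.17 CPM in controls and at 4.04, 3.87 and 4.20 CPM with LYCAT shRNA (log2 -0.60, SE 0.294, edgeR adjusted p = 0.152), with control library 1 far above the other 5 libraries. STXBP3 (Munc18c), STXBP4 and UNC13B had log2 fold changes of -0.17, -0.21 and 0.08. STXBP6, STXBP5L, UNC13A and UNC13C had 24, 2, 1 and 0 counts in all.

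RNA levels of the isoforms were compared per length, that is CPM per kilobase of annotated exon, the scale on which different genes are ordered here. Which isoform acts at each step was not measured. In control libraries VAMP8 led, with 101 ± 5.39, and made up 76.2% ± 0.755 of the VAMP family. STX16 followed with 32.3 ± 2.28, then RAB3D with 20.8 ± 1.93, CPLX2 with 19.0 ± 1.64, VAMP3 with 17.1 ± 0.274, STX17 with 15.1 ± 0.819, RAB27A with 14.4 ± 1.00 and SNAP23 with 10.6 ± 0.289 (SD, n = 3). On this length RAB3D and CPLX2 did not differ beyond their spread, nor did STX17 and RAB27A. The order below STX16 depended on the length used. By the longest annotated transcript in place of all exons, CPLX2 was the third with 26.9 ± 2.32, followed by STX17 with 26.4 ± 1.43, RAB27A with 23.4 ± 1.62, SNAP23 with 23.3 ± 0.633, RAB3D with 21.5 ± 2.00 and VAMP3 with 21.4 ± 0.343 CPM per kilobase (SD, n = 3). There RAB3D lay below CPLX2 and RAB27A below STX17 by more than the SD of either gene, while CPLX2 and STX17 did not differ beyond their spread. VAMP8 stood apart from every other member on both lengths (125 ± 6.63 by the longest transcript). By all exons, SNAP23 was 45.6% ± 0.910 of the SNAP family, RAB27A 80.0% ± 1.13 of the RAB27 pair and RAB3D 91.4% ± 3.43 of the RAB3 family (SD, n = 3). With LYCAT shRNA CPLX2 stood at 4.40 ± 0.457 per kilobase, close to STX18 at 4.46 ± 0.567 (SD, n = 3), while VAMP8 was still highest at 109 ± 6.69. By the longest transcript these values were 6.21 ± 0.645 for CPLX2 and 6.80 ± 0.865 for STX18 (SD, n = 3).

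**Figure D3:**
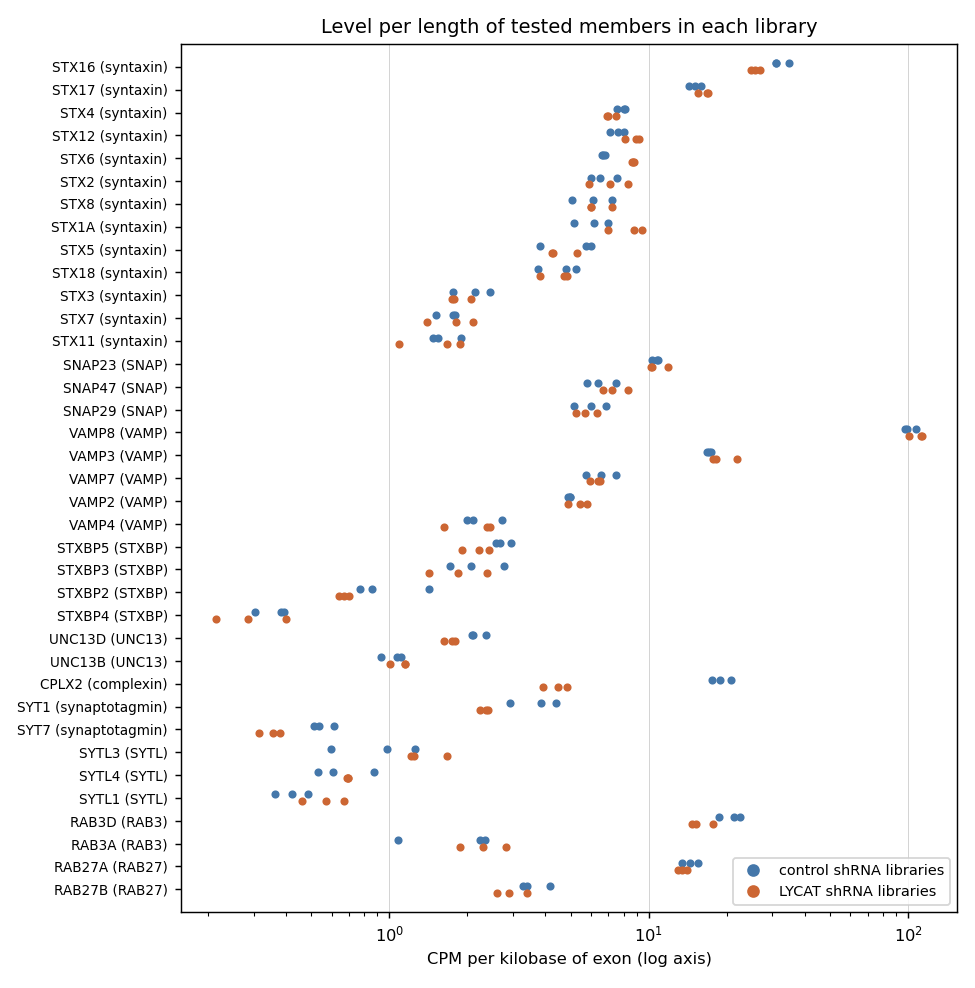
Level per length (x axis, CPM per kilobase of exon, log scale) of 37 of the 38 tested members in each control shRNA and LYCAT shRNA library, grouped by family. VAMP8 lies highest at 101 in controls, and CPLX2 is the member whose groups lie farthest apart, at 19.0 and 4.40.

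Since complexin 2, SYT1 and STX1A are known from neurons and endocrine cells, 14 neuroendocrine and neuronal markers were set beside them. INSM1 and NEUROD1 had no count in any library, CHGA, CHGB and SYP stayed under 0.5 CPM in every library, and 4 of the 14 were tested. SCG2, a secretogranin packed into dense-core granules, fell from 10.3 ± 2.29 to 5.17 ± 1.20 CPM (SD, n = 3 each; log2 -0.99, SE 0.244, edgeR adjusted p = 0.00168). UCHL1, a deubiquitinase abundant in neurons, rose from 1854 ± 73.3 to 2107 ± 65.4 CPM (SD, n = 3 each; log2 0.18, SE 0.041, edgeR adjusted p = 0.000458). ENO2 and NCAM1 did not pass (log2 -0.13 and -0.004). Summed over the 14, the level was 1843 to 1969 CPM in controls and 2072 to 2204 CPM with LYCAT shRNA, with most of these counts on UCHL1. The list thus held both genes without a count and well-counted genes, and its part in the results was not tested.

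Genes of exocytosis and other membrane transport that the symbol rule did not take, called other exocytosis genes below, were read from a list. It held 80 genes, of which 55 were tested. Of these 3 rose, 3 fell and 49 did not pass, so 10.9% were called, against 19.1% of all tested genes, and the list median was 0.008. SCAMP1, a secretory carrier membrane protein, fell from 113 ± 2.23 to 85.3 ± 6.63 CPM (SD, n = 3 each; log2 -0.41, SE 0.0754, edgeR adjusted p = 1.88e-05). VPS45, the Munc18-type partner of STX16, fell by 0.38 on the log2 scale and RAB10, a GTPase of basolateral and other exocytosis, by 0.16 (edgeR adjusted p = 0.0353 and 0.037); neither passed with DESeq2 or limma-voom. TXLNG, gamma taxilin, which binds syntaxins, rose from 59.9 ± 3.35 to 88.5 ± 4.10 CPM (SD, n = 3 each; log2 0.57, SE 0.0841, edgeR adjusted p = 1.28e-07). SYPL1, a synaptophysin-like vesicle protein, rose by log2 0.27 (edgeR adjusted p = 0.00159) and RAB8B by log2 0.67 (edgeR adjusted p = 0.0362), the latter from 6.05 ± 2.00 to 9.73 ± 0.758 CPM (SD, n = 3 each). RAB8B did not pass with DESeq2 (adjusted p = 0.166) or without any 1 library other than control library 1 (edgeR adjusted p = 0.0618 to 0.154), nor VPS45 and RAB10 without any 1 library other than control library 2 (0.0634 to 0.256). Neither SYPL1 nor RAB8B passed against a single control library (log2 0.19 and 0.97; edgeR adjusted p = 0.166 and 0.0671).

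Subunits and recycling factors of the same machinery did not pass with edgeR where they are named here. NSF, the ATPase that takes SNARE bundles apart, had a log2 fold change of -0.23 (95% interval -0.42 to -0.03, edgeR adjusted p = 0.0901), and its adaptors NAPA and NAPG had -0.12 and 0.03. VTI1A, the SNARE that acts with STX6 and STX16, had 0.17 (95% interval -0.23 to 0.56). These genes were chosen after their values were seen.

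**Figure D4:**
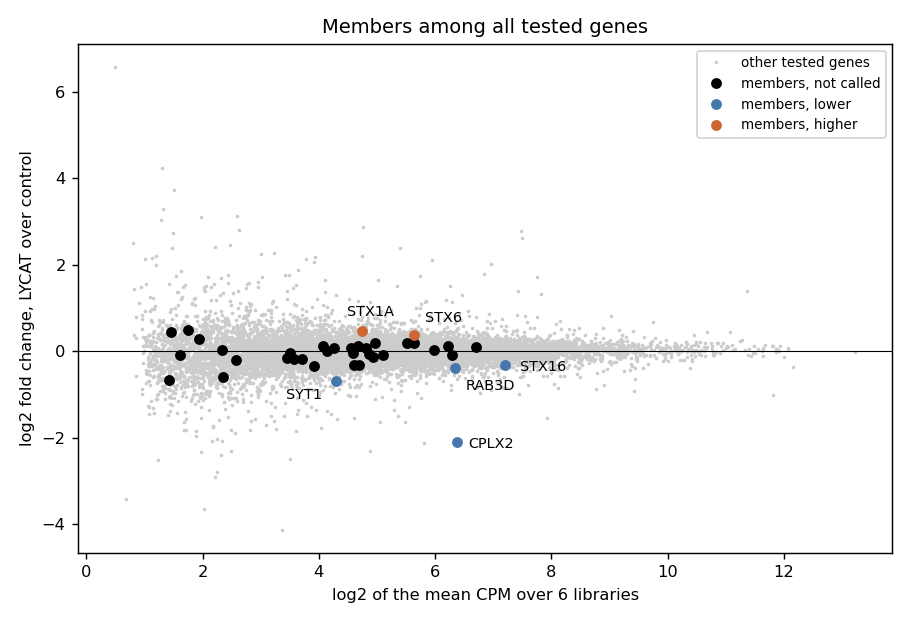
Log2 fold change (y axis) against the log2 of the mean CPM over 6 libraries (x axis) for all 11097 tested genes in grey, with the 38 tested members in black, or coloured where called. CPLX2 lies at -2.11, below nearly all genes of its level, and the other members lie inside the cloud of tested genes.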

How the data were processed

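RNA of 6 H2122 libraries was sequenced. The authors deposited 1 table of raw counts per gene symbol. The tools named, per the submitters' processing notes, were featureCounts 1.5.1, Bowtie2, BWA 0.7.15 and bcl2fastq 2.17, with the builds hg19 and mm10. The aligner and build behind the table and any use of strand are not given in the sources used here, so overlapping and antisense genes are uncertain. Columns were assigned by name, reading "cycat" as a misspelling of LYCAT.

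Genes were filtered with filterByExpr, scaled with TMM and tested with edgeR 4.0.16 (R 4.3.3; estimateDisp, glmQLFit with robust=TRUE, glmQLFTest, group as the only term), with Benjamini-Hochberg adjustment over 11097 genes. SE is the size of the log2 fold change over the square root of F. CPM used the scaled totals of the tested genes. The pipeline was tested on simulated data. Lengths came from GENCODE release 29 (71 of 72 members). Alternatives used DESeq2 1.42.0, limma-voom (limma 3.58.1), other scalings and filters, a replicate block and left-out libraries. Members, lists and the rule for named genes (called members, and others with a mean of at least 20 CPM; up to 4 other exocytosis genes a direction) were chosen with earlier results of these data known. Single values of 2 members and 1 marker are not reported here. Protein sequences were not used here. Intervals cover the spread between libraries only.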

Additional observations from a re-analysis of the deposited data

How the results depend on the processing

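The count of 4 members lower stayed at 4 under each scaling, filter and test tried and without any 1 library, and was 3 with 1 control library. The count of 2 members higher was 1 with DESeq2, 1 to 3 with any 1 library left out and 0 with 1 control library, a comparison that was added after seeing the data and assumes that the lone control varies like the other libraries. CPLX2, RAB3D and STX16 passed there (edgeR adjusted p = 7.66e-18, 0.00652 and 0.0284). Among other exocytosis genes, the count of 3 lower was 1 with DESeq2, 1 with limma-voom and 1 to 4 with any 1 library left out. The median of tested members was -0.059 to 0.011 with any 1 library left out and 0.033 with 1 control library. Members that did not pass changed sign in some of these: without any 1 library SNAP23 (-0.047 to 0.069), SNAP29 (-0.17 to 0.036), STX2 (-0.023 to 0.22), STX7 (-0.053 to 0.20), STX8 (-0.046 to 0.21), STX18 (-0.14 to 0.071) and VAMP7 (-0.16 to 0.022), and with 1 control library RAB27A (0.012), STX8 (-0.17), STX18 (0.27) and VAMP7 (0.13). The cause was not tested. Same-numbered libraries of the groups did not deviate together (r = 0.005, -0.064 and -0.048), and differently numbered ones gave r of -0.084 to 0.115. Correlations this small cannot tell whether the numbers mark shared cultures. Under the replicate block 4 members were lower and 2 higher. By the longest transcript in place of all exons, 22 and not 18 members reached 5 CPM per kilobase, and the order below STX16 changed.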
